A study of Mus musculus with 12 samples.

Results

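The genes described here are 10 classical transcriptional targets of p53 that act in growth arrest, in p53 feedback and in apoptosis: Cdkn1a, Mdm2, Bax, Bbc3, Ccng1, Trp53inp1, Pmaip1, Phlda3, Zmat3 and Aen. They were picked by symbol, with no threshold on their values, from the 53465 genes of a bulk RNA-seq series of mouse forelimb buds, and all 10 were found and tested. The series has 12 libraries in 4 groups of 3, each library from 1 pair of forelimb buds of a Swiss albino embryo. The Tbx3_del group is homozygous for the Tbx3ΔVenus allele, in which a Venus reporter with transcription termination and polyadenylation sequences sits at the start codon of Tbx3 in every cell of the embryo, and it is set against Tbx3_WT, given only as wild type, both at E9.75-10.0 (embryonic days; 28 to 31 somites). The Hand2_del group carries Prrx1-Cre;Hand2Δ/Δc and is set against Hand2_WT, which carries the same Prrx1-Cre transgene with Hand2+/+, both at E10-10.25 (31 to 33 somites). Prrx1-Cre acts in limb bud mesenchyme and not in the limb ectoderm or vessels. Both TBX3 and HAND2 are transcription factors of the posterior limb bud.

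p53, encoded by Trp53, is a transcription factor that is held at a low protein level by MDM2 and accumulates after DNA damage and other stress. It then raises the transcription of genes that stop the cell cycle, genes that open the outer mitochondrial membrane and start caspase activation, and genes such as Mdm2 that switch p53 off again. Because p53 is regulated mainly as a protein, its activity is commonly read from the RNA of its targets, and in limb buds programmed cell death is a normal part of development. Raised RNA of a single target is not specific for p53, since other factors also act on each of these promoters.

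For 7 of the 10 genes, 11 RefSeq promoter windows of 300 bases (GRCm38.p6, 250 bases before and 50 after an annotated start) were matched by symbol. There was no match for Trp53inp1, Pmaip1 and Zmat3. Each window was searched for the p53 response element, 2 half-sites of 10 bases with no spacer, whose consensus reads the same on both strands. The best match of each of 5 genes is shown, with capitals for the central 4 bases of each half-site. Whether p53 binds there, or elsewhere at these genes, was not tested.
Cdkn1a: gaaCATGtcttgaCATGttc
Ccng1: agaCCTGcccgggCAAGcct
Bbc3: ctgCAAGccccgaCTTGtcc
Aen: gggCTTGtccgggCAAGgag
Bax: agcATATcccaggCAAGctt
The Cdkn1a element lies on the plus strand at chr17:29090928-29090947, its first base 51 bases before one annotated start, and matched the consensus at 19 of 20 bases. In the window of another Cdkn1a start the best match (chr17:29093697-29093716) was at 15 of 20 bases. The Ccng1 element lies on the minus strand at chr11:40755462-40755481, 195 bases before the start, and also matched at 19 of 20 bases. Matches with at most 1 mismatch were in 2 windows of these 2 genes and in 29 of all 32851 windows (0.0883%). The other 3 elements matched at 17 of 20 bases. The Bbc3 element lies at chr7:16309486-16309505 on the plus strand, 97 bases before one annotated start. The best matches in the windows of other Bbc3 starts were at 15 and 14 of 20 bases. The Aen element lies at chr7:78895937-78895956 on the plus strand, 10 bases after one annotated start and 121 before another. The Bax element lies at chr7:45467090-45467109 on the minus strand, 211 bases before the start. All of its mismatches are in its first half-site, and some are among the central bases. Matches with up to 3 mismatches were less rare, found in 6.29% of all windows and in 6 of the 11 windows of the 7 genes (the Aen element at both of its starts). Mdm2 and Phlda3 had no match this close in these windows, which says only that the letters are not there. A match is a description of sequence, not of binding.

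The 6 Tbx3 libraries had totals of 23.3 to 31.8 M counts (M for 1e6), and the 6 Hand2 libraries of 60.2 to 68.6 M counts. The 10 genes had between 131 counts (Pmaip1) and 6272.82 counts (Bax) in a library, so counting error alone reached 8.74% of the value at most. Hand2 itself was at 0.187 to 2.21 CPM (counts per 1e6, scaled by TMM) in Hand2_del buds against 120 to 126 CPM in Hand2_WT buds (log2 fold change -7.01, edgeR adjusted p = 0.00164). Tbx3 was at 73.3 to 80.6 CPM in the libraries labelled Tbx3_del against 77.3 to 79.3 CPM in Tbx3_WT libraries (log2 fold change -0.01, edgeR adjusted p = 0.954), so its gene-level count does not check those labels, and every direction below for the libraries labelled Tbx3_del rests on the label. Limb mesenchyme markers (Prrx1, Prrx2, Tbx5, Twist1, Msx1 and Meis2) summed to 1331 to 1978 CPM and hindlimb markers (Pitx1, Tbx4 and Isl1) to 3.29 to 17.1 CPM over the 12 libraries. Hand2_del replicate 1 stood apart with 5.37% of its counts on a single gene, CT010467.1. All 3 Tbx3_WT embryos were female by their sex-linked RNA, while 2 of the 3 embryos labelled Tbx3_del were male, and both Hand2 groups held both sexes. In bulk RNA, fewer cells of a type and less RNA per cell cannot be told apart.

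Per kilobase of exon, Bax was the most abundant of the 10 genes in all 4 groups. Its level was 62.9 ± 2.95 CPM per kb in buds labelled Tbx3_del and 64.2 ± 2.10 CPM per kb in Tbx3_WT buds, and 53.4 ± 1.01 CPM per kb in Hand2_del buds and 58.8 ± 1.69 CPM per kb in Hand2_WT buds (SD, n = 3 each). Bax protein forms the pore in the outer mitochondrial membrane, and its RNA was at about the level of Trp53 itself, which had 55.2 CPM per kb in Hand2_WT buds. In Tbx3_WT buds the order below Bax was Aen at 15.6, Phlda3 at 11.8, Mdm2 at 11.2, Ccng1 at 9.01, Bbc3 at 6.30, Pmaip1 at 2.88, Zmat3 at 2.71, Trp53inp1 at 2.60 and Cdkn1a at 2.04 CPM per kb. In that order the ranges of neighbours overlapped for Pmaip1 with Zmat3 and for Zmat3 with Trp53inp1, and the other neighbours were separate. Beyond its neighbours, Pmaip1 (2.10 to 3.83 CPM per kb) also overlapped Trp53inp1 (2.14 to 2.91) and Cdkn1a (1.92 to 2.14). By mean, Cdkn1a was the least abundant of the 10 in Tbx3_WT, Hand2_del and Hand2_WT buds. Its range overlapped that of Pmaip1 in Tbx3_WT buds and those of Zmat3 and Trp53inp1 in Hand2_WT buds. Pmaip1 had the lowest mean in buds labelled Tbx3_del, where its range overlapped those of Cdkn1a, Trp53inp1 and Zmat3.

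**Figure D1:**
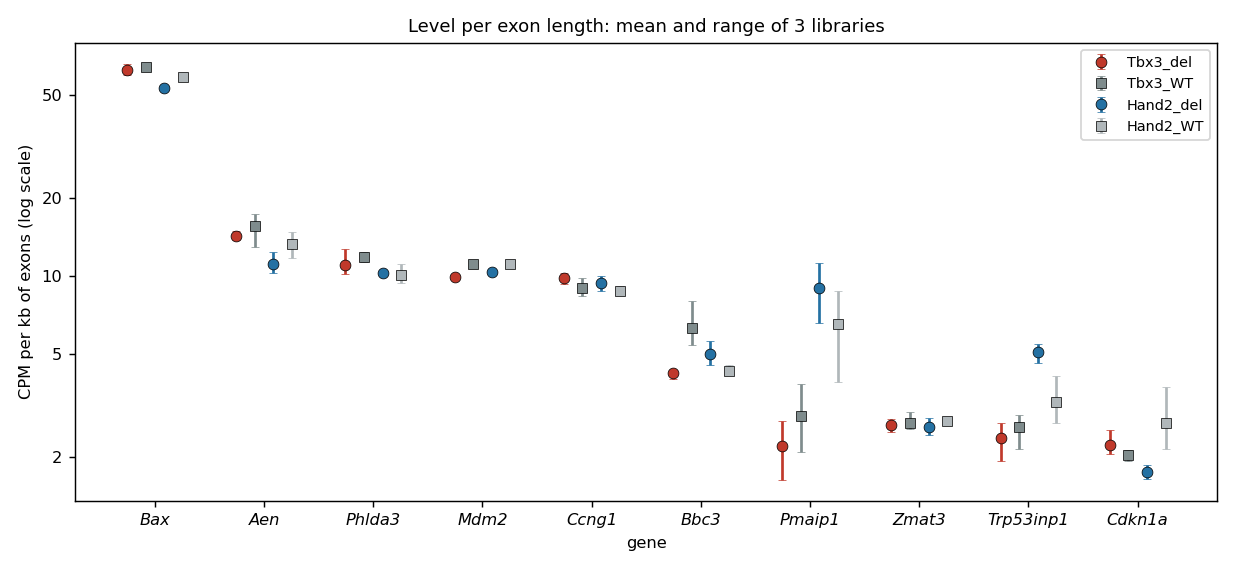
Level of each gene per kilobase of exon (CPM per kb, log scale), with points for the mean and bars for the lowest and highest of 3 libraries in each of the 4 groups. Bax lies between 53.4 and 64.2 CPM per kb in every group, while Cdkn1a, Zmat3, Trp53inp1 and Pmaip1 are near 2 to 3 CPM per kb in Tbx3_WT buds.

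The libraries also differed in how tightly a gene was held. Mdm2 had the steadiest level taken over all groups, with a coefficient of variation of 1.99% to 2.25% within each group of 3. Pmaip1, which encodes the BH3-only protein NOXA, varied most, with coefficients of 26.0% to 37.6%. Both wild-type groups, compared by their ranges with no test, were separate for 5 of the 10 genes. The share of all genes with separate ranges was not counted, so this count is a description only. Pmaip1 was at 17.9 CPM in Hand2_WT buds and 7.88 CPM in Tbx3_WT buds, and Cdkn1a was at 9.58 and 7.25 CPM in the same order. Bbc3 was at 9.13 CPM in Hand2_WT buds and 13.4 CPM in Tbx3_WT buds, Bax at 92.7 and 101.1 CPM, and Phlda3 at 15.8 and 18.5 CPM. Stage, colony, transgene and depth all differ between both wild-type groups and cannot be told apart.

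In buds labelled Tbx3_del, none of the 10 genes passed the test. With edgeR's quasi-likelihood F test, adjusted over all genes, 0 of 10 were called, against 1.01% of the 15130 genes tested (0.727% higher and 0.284% lower). At an unadjusted p under 0.05 with edgeR there were 2 (Mdm2 and Bbc3), beside 14.3% of all genes tested. DESeq2 called 1 of the 10 (Bbc3, adjusted p = 0.0429), beside 551 genes over all. Limma-voom called 0 of the 10, beside 99 genes over all. By sign alone, 8 of the 10 had a lower mean in buds labelled Tbx3_del, and the median log2 fold change was -0.11, against -0.00 over all genes tested. The groups did not overlap for 2 of the 10 genes, both lower in buds labelled Tbx3_del, while 20.6% of all genes tested did not overlap and 9.95% were lower without overlap. Among females alone (1 embryo labelled Tbx3_del and 3 Tbx3_WT) the log2 ratio was -0.65 for Bbc3 and -0.20 for Mdm2, and no male Tbx3_WT embryo was there to compare.

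In Hand2_del buds, 2 of the 10 genes passed the same test, 1 in each direction. Trp53inp1 rose and Bax fell, while 10.5% of the 17488 genes tested were called (4.68% higher and 5.82% lower). At an unadjusted p under 0.05 there were 5 (Bax, Trp53inp1, Cdkn1a, Mdm2 and Aen), beside 32.4% of all genes tested. The median log2 fold change of the 10 genes was -0.02, against 0.01 over all genes tested. The groups did not overlap for 4 of the 10, Trp53inp1 higher and Cdkn1a, Mdm2 and Bax lower in Hand2_del buds, beside 38.2% of all genes tested (18.7% higher and 19.5% lower).

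**Figure D2:**
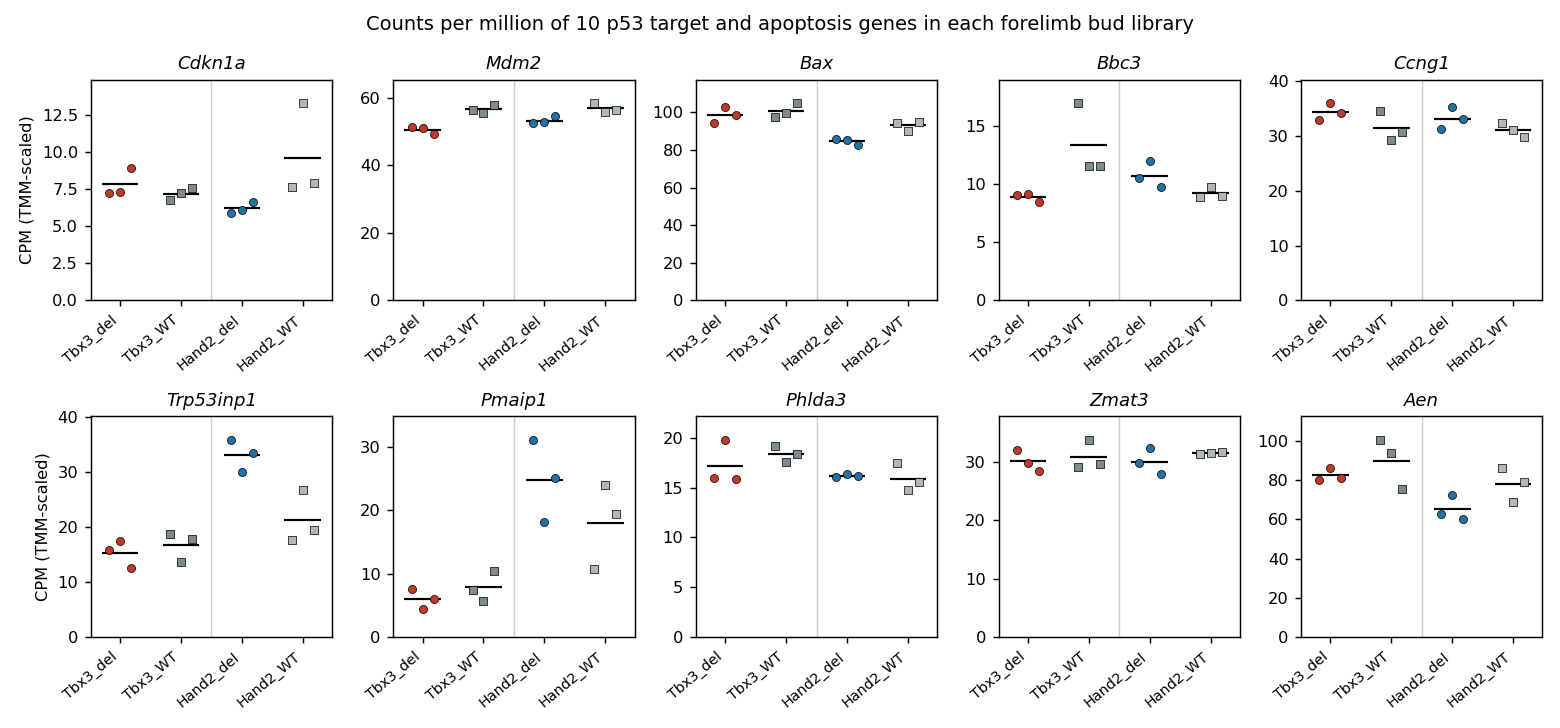
CPM (scaled by TMM, linear axis from 0) of each gene in each of the 12 libraries, with circles for mutant and squares for wild-type libraries and a line at the group mean. Mutants lie below their wild types without overlap for Mdm2 in both series, for Bbc3 in the Tbx3 series and for Cdkn1a and Bax in the Hand2 series, and above them for Trp53inp1 in the Hand2 series.

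Among the growth arrest genes, Cdkn1a encodes p21, an inhibitor of cyclin-dependent kinases (ENSMUSG00000023067, GRCm38 chromosome 17, 29090976 to 29100727). In Hand2_del buds it had 5.89, 6.14 and 6.67 CPM, against 7.68, 13.3 and 7.92 CPM in Hand2_WT buds. All 3 Hand2_del libraries were below all Hand2_WT libraries, and Hand2_WT replicate 2 was far above the other two. The log2 fold change of -0.63 (SE 0.216) did not pass the test (edgeR adjusted p = 0.0989), and it was -0.32 without Hand2_WT replicate 2. Cdkn1a had 7.29, 7.29 and 8.96 CPM in libraries labelled Tbx3_del, against 6.79, 7.24 and 7.61 CPM in Tbx3_WT libraries. These groups overlapped, with a log2 fold change of 0.12 (SE 0.133, edgeR adjusted p = 0.732), which was 0.01 without Tbx3_del replicate 3. Cdkn1a shares 273 exon bases with an annotated transcript on the opposite strand, AC167363.2, and since the strand protocol is not given in the sources used here their reads cannot be told apart.

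Ccng1 encodes cyclin G1, a p53 target that takes part in the control of MDM2 (ENSMUSG00000020326, chromosome 11, 40748552 to 40755311). It had 31.1, 35.2 and 33.0 CPM in Hand2_del buds, against 32.4, 31.0 and 29.7 CPM in Hand2_WT buds. In the Tbx3 series it had 32.9, 35.9 and 34.1 CPM in libraries labelled Tbx3_del, against 34.4, 29.3 and 30.7 CPM in Tbx3_WT libraries. Both pairs of groups overlapped, and neither difference passed the test (log2 fold change 0.09 with edgeR adjusted p = 0.330 for Hand2_del, and 0.12 with edgeR adjusted p = 0.495 for Tbx3_del).

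Mdm2 encodes the ubiquitin ligase that removes p53 and closes the feedback loop (ENSMUSG00000020184, chromosome 10, 117688875 to 117710758). It had 51.2, 50.9 and 49.2 CPM in libraries labelled Tbx3_del, against 56.4, 55.4 and 57.7 CPM in Tbx3_WT libraries. In Hand2_del buds it had 52.4, 52.7 and 54.4 CPM, against 58.3, 55.8 and 56.4 CPM in Hand2_WT buds. Mdm2 was below its wild types without overlap in both series, by a small amount each time. The log2 fold change was -0.16 (SE 0.0450, edgeR adjusted p = 0.158) for Tbx3_del and -0.10 (SE 0.0336, edgeR adjusted p = 0.102) for Hand2_del, and neither passed the test. With all 12 libraries sharing 1 estimate of the spread, the Tbx3_del difference had an edgeR adjusted p of 0.0377.

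Bax (ENSMUSG00000003873, chromosome 7, 45461697 to 45466898) was the only member that fell past the threshold in Hand2_del buds. It had 85.8, 85.4 and 82.7 CPM in Hand2_del buds, against 94.6, 90.2 and 94.8 CPM in Hand2_WT buds, with no overlap. The means were 84.6 ± 1.70 CPM in Hand2_del buds and 93.2 ± 2.62 CPM in Hand2_WT buds (SD, n = 3 each), a log2 fold change of -0.14 (SE 0.0337, edgeR adjusted p = 0.0465). The call was lost without each of 5 of the 6 libraries (edgeR adjusted p = 0.0789 to 0.172), all but Hand2_WT replicate 2, with limma-voom (adjusted p = 0.0630) and with embryo sex as a covariate (edgeR adjusted p = 0.0988). Within sexes the log2 ratio was -0.11 in females (1 Hand2_del and 2 Hand2_WT embryos) and -0.17 in males (2 Hand2_del and 1 Hand2_WT). In the Tbx3 series Bax had 94.5, 103 and 98.6 CPM in libraries labelled Tbx3_del, against 97.5, 99.5 and 105 CPM in Tbx3_WT libraries, and these groups overlapped (log2 fold change -0.03, edgeR adjusted p = 0.850). Bax shares 192 exon bases (12.2% of its exons) with Gm45808 on the same strand, which had 0.0814 to 0.823 CPM over the libraries, and its expected counts were not whole numbers in 12 of 12 libraries.

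Bbc3 encodes PUMA, a BH3-only activator of apoptosis (ENSMUSG00000002083, chromosome 7, 16308393 to 16318205). It had 9.08, 9.15 and 8.48 CPM in libraries labelled Tbx3_del, against 16.9, 11.5 and 11.5 CPM in Tbx3_WT libraries. The groups did not overlap, and Tbx3_WT replicate 1 was well above the other two. The log2 fold change of -0.58 (SE 0.164, edgeR adjusted p = 0.168) did not pass the test and was -0.37 without Tbx3_WT replicate 1. In Hand2_del buds Bbc3 had 10.5, 11.9 and 9.71 CPM, against 8.90, 9.72 and 8.92 CPM in Hand2_WT buds. These groups overlapped by a narrow margin, at a log2 fold change of 0.22 (SE 0.0981, edgeR adjusted p = 0.168), which was 0.14 without Hand2_del replicate 2.

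Pmaip1 (ENSMUSG00000024521) had 31.0, 18.1 and 25.0 CPM in Hand2_del buds, against 10.7, 24.0 and 19.4 CPM in Hand2_WT buds. It had 7.53, 4.42 and 6.04 CPM in libraries labelled Tbx3_del, against 7.38, 5.68 and 10.5 CPM in Tbx3_WT libraries. Its libraries were widely scattered and overlapped in both series. The log2 fold change was 0.46 (SE 0.308, edgeR adjusted p = 0.342) for Hand2_del and -0.39 (SE 0.266, edgeR adjusted p = 0.555) for Tbx3_del. A single library moved both values: the Hand2_del one was 0.19 without Hand2_WT replicate 1 and 0.72 without Hand2_WT replicate 2, and the Tbx3_del one -0.12 without Tbx3_WT replicate 3 and -0.59 without Tbx3_del replicate 1.

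Aen encodes an apoptosis enhancing nuclease (ENSMUSG00000030609, chromosome 7, 78895854 to 78911209). It had 62.9, 72.6 and 60.0 CPM in Hand2_del buds, against 86.2, 68.9 and 79.0 CPM in Hand2_WT buds. Hand2_del replicate 2 was above Hand2_WT replicate 2, and the log2 fold change of -0.26 (SE 0.0978) did not pass edgeR's test (adjusted p = 0.120), while DESeq2 called it (adjusted p = 0.0437). Aen had 80.1, 86.1 and 81.1 CPM in libraries labelled Tbx3_del, against 100.4, 93.9 and 75.4 CPM in Tbx3_WT libraries, and the groups overlapped (log2 fold change -0.12, edgeR adjusted p = 0.623).

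Trp53inp1 encodes a stress-induced nuclear protein that promotes p53 activity and autophagy (ENSMUSG00000028211, chromosome 4, 11156431 to 11174379). It had 35.8, 30.0 and 33.5 CPM in Hand2_del buds, against 17.6, 26.7 and 19.5 CPM in Hand2_WT buds, with no overlap and Hand2_WT replicate 2 the highest of the wild types. The means were 33.1 ± 2.91 CPM in Hand2_del buds and 21.3 ± 4.82 CPM in Hand2_WT buds (SD, n = 3 each). It rose by a log2 fold change of 0.64 (SE 0.156, edgeR adjusted p = 0.0474), which is 1.56-fold. The call was lost without each of 5 of the 6 libraries (edgeR adjusted p = 0.0677 to 0.152), all but Hand2_WT replicate 2, and with embryo sex as a covariate (edgeR adjusted p = 0.0956). Within sexes the log2 ratio was 0.44 in females and 0.83 in males. In the Tbx3 series it had 15.8, 17.5 and 12.5 CPM in libraries labelled Tbx3_del, against 18.7, 13.7 and 17.9 CPM in Tbx3_WT libraries, and the groups overlapped (log2 fold change -0.14, edgeR adjusted p = 0.752).

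Phlda3 and Zmat3 showed little difference in either series. Phlda3, whose product blocks AKT at the membrane (ENSMUSG00000041801, chromosome 1, 135766119 to 135769136), had 16.0, 16.3 and 16.2 CPM in Hand2_del buds, against 17.4, 14.8 and 15.5 CPM in Hand2_WT buds. It had 16.0, 19.8 and 15.9 CPM in libraries labelled Tbx3_del, against 19.2, 17.6 and 18.3 CPM in Tbx3_WT libraries. Zmat3, a zinc finger RNA-binding protein (ENSMUSG00000027663, chromosome 3, 32334792 to 32366014), had 29.8, 32.4 and 27.9 CPM in Hand2_del buds, against 31.4, 31.6 and 31.7 CPM in Hand2_WT buds. All of these groups overlapped. Zmat3 had 32.1, 29.9 and 28.5 CPM in libraries labelled Tbx3_del, against 29.2, 33.7 and 29.7 CPM in Tbx3_WT libraries, also with overlap. The log2 fold changes of both genes lay between -0.09 (Phlda3 for Tbx3_del) and 0.03 (Phlda3 for Hand2_del), with edgeR adjusted p of 0.460 (Zmat3 for Hand2_del) or higher.

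**Figure D3:**
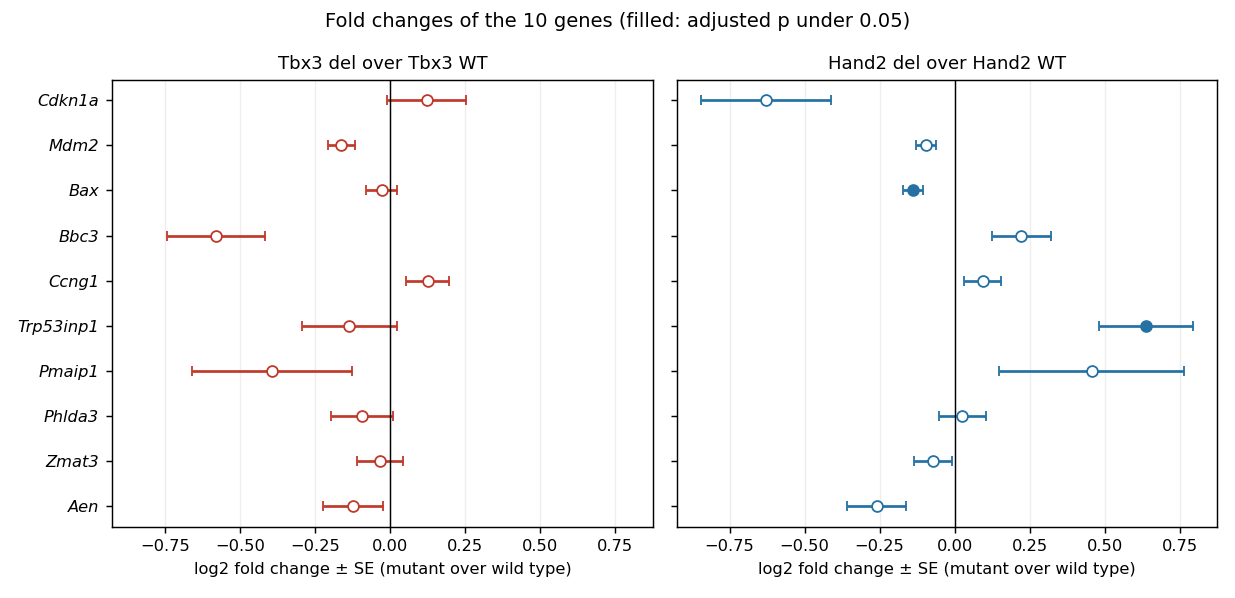
Log2 fold change (mutant over wild type, horizontal axis) of each of the 10 genes with its SE from edgeR's fit of 6 libraries, in the Tbx3 series (left) and the Hand2 series (right), filled where the adjusted p was under 0.05. Only Bax (-0.14) and Trp53inp1 (0.64) in the Hand2 series are filled, and the 10 genes lie on both sides of 0.

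Whether the 2 mutants differed in their effect on a gene was tested as the Hand2_del log2 fold change less the Tbx3_del one, with all 12 libraries fitted together. With edgeR 0 of the 10 genes were called, 3 had an unadjusted p under 0.05 (Cdkn1a, Bbc3 and Trp53inp1) beside 17.4% of all genes, and 1.68% of the 17360 genes tested were called (0.789% higher and 0.893% lower). DESeq2 called 2 of the 10 (Bbc3, adjusted p = 0.00648, and Trp53inp1, adjusted p = 0.0320), beside 859 genes over all, and limma-voom called 0 of the 10. Trp53inp1 differed by 0.77 (SE 0.241, edgeR adjusted p = 0.141), Bbc3 by 0.80 (SE 0.201, edgeR adjusted p = 0.0749) and Cdkn1a by -0.75 (SE 0.268, edgeR adjusted p = 0.192), on the log2 scale.

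The 10 genes did not share 1 pattern over the libraries. Taking each gene's log2 CPM relative to the mean of its series, 5 of the 10 (Ccng1, Cdkn1a, Pmaip1, Zmat3 and Trp53inp1) correlated negatively with the mean of the other 9 over the 12 libraries. The highest correlations were those of Bbc3 (Pearson's r = 0.54) and Mdm2 (r = 0.53), and the lowest that of Pmaip1 (r = -0.36). The genes outside the 10 whose profile was most like the mean profile of the 10 were Rcn2 (r = 0.93), Brms1l (r = 0.90), Itsn2 (r = 0.89), Atg12 (r = 0.88) and Pip4k2c (r = 0.88). These are the top 5 of 10636 genes ranked, over 12 libraries that share their groups and series, and are given as a description.

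Upstream of the 10 genes, Trp53 had 204, 205 and 202 CPM in Hand2_del buds, against 227, 224 and 223 CPM in Hand2_WT buds. The groups did not overlap, and the log2 fold change of -0.14 (SE 0.0354) lay just outside the threshold (edgeR adjusted p = 0.0503), while limma-voom (adjusted p = 0.0399) and DESeq2 (adjusted p = 0.000535) called it. Trp53 had 226, 217 and 226 CPM in libraries labelled Tbx3_del, against 245, 239 and 216 CPM in Tbx3_WT libraries, with overlap (log2 fold change -0.07, edgeR adjusted p = 0.667). Mdm4, the partner of MDM2 that also restrains p53, had 92.8, 99.7 and 95.2 CPM in Hand2_del buds, against 90.2, 85.9 and 90.0 CPM in Hand2_WT buds, without overlap and short of the threshold (log2 fold change 0.11, edgeR adjusted p = 0.0981). In the Tbx3 series its log2 fold change was 0.01 (edgeR adjusted p = 0.975). With edgeR, 1 of the 13 tested genes of p53 and its regulators had an unadjusted p under 0.05 for Tbx3_del and 5 for Hand2_del. Over all genes tested these shares were 14.3% and 32.4%. By adjusted p, 1 of the 13 was called in Hand2_del buds and 0 in buds labelled Tbx3_del, beside 10.5% and 1.01% of all genes. The one was Chek1, the checkpoint kinase of stalled replication, which had 65.6, 68.2 and 66.8 CPM in Hand2_del buds, against 77.9, 73.5 and 77.0 CPM in Hand2_WT buds, and fell by a log2 fold change of -0.19 (edgeR adjusted p = 0.0259). The median of this list was -0.08 for Hand2_del and -0.07 for Tbx3_del.

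Of 23 other p53 targets tested, 3 rose and 0 fell in Hand2_del buds, beside 4.68% higher and 5.82% lower over all genes, with a list median of 0.01, the same as that over all genes. Without overlap between the groups, 6 of the 23 were higher and 5 lower in Hand2_del buds, beside 18.7% and 19.5% of all genes tested. Sesn1, which encodes sestrin 1, a restraint on the growth kinase mTORC1, had 31.7, 31.9 and 30.9 CPM in Hand2_del buds, against 24.8, 26.8 and 25.2 CPM in Hand2_WT buds (log2 fold change 0.30, edgeR adjusted p = 0.0220). Psrc1, a microtubule-associated protein of the spindle, had 56.9, 55.7 and 56.2 CPM in Hand2_del buds, against 48.0, 49.7 and 51.6 CPM in Hand2_WT buds (log2 fold change 0.18, edgeR adjusted p = 0.0346). Ephx1, an epoxide hydrolase of detoxification, was low throughout, at 1.82, 1.34 and 2.35 CPM in Hand2_del buds, against 0.794, 0.844 and 0.710 CPM in Hand2_WT buds (log2 fold change 1.23, edgeR adjusted p = 0.0289). In buds labelled Tbx3_del 0 of 22 were called, beside 1.01% of all genes, and the list median was -0.01. At an unadjusted p under 0.05 with edgeR there was 1, beside 14.3% of all genes. For Hand2_del 10 of the 23 had an unadjusted p under 0.05 with edgeR, beside 32.4% of all genes.

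In the BCL2 family outside the 10 genes, 3 of 14 were called in Hand2_del buds, beside 10.5% of all genes tested. At an unadjusted p under 0.05 with edgeR there were 4 of 14, beside 32.4% of all genes. Bcl2 and Mcl1, which encode inhibitors of BAX, fell, and Bmf, which encodes a BH3-only activator, rose. Bcl2 had 19.5, 19.1 and 17.2 CPM in Hand2_del buds, against 25.9, 26.6 and 25.3 CPM in Hand2_WT buds (log2 fold change -0.48, SE 0.0663, edgeR adjusted p = 0.0119). This call held without any one of the 6 libraries (edgeR adjusted p = 0.0253 to 0.0485). Mcl1 had 169.6, 185 and 178 CPM in Hand2_del buds, against 228, 212 and 213 CPM in Hand2_WT buds (log2 fold change -0.29, edgeR adjusted p = 0.0213). Bmf had 66.5, 47.3 and 61.8 CPM in Hand2_del buds, against 31.1, 44.6 and 32.5 CPM in Hand2_WT buds (log2 fold change 0.70, edgeR adjusted p = 0.0475). Hand2_WT replicate 2 was again the closest of the wild types to Hand2_del, as for Trp53inp1.

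In buds labelled Tbx3_del, 1 of the 14 was called, beside 1.01% of all genes tested. At an unadjusted p under 0.05 with edgeR there were 4 of the 14, beside 14.3% of all genes. Bnip3, which encodes a mitochondrial protein of mitophagy and a known target of hypoxia signalling, had 123, 211 and 221 CPM in libraries labelled Tbx3_del, against 55.2, 60.7 and 68.1 CPM in Tbx3_WT libraries. It rose 3.02-fold (log2 fold change 1.59, SE 0.207, edgeR adjusted p = 0.0220). The call was lost without each Tbx3_WT library and without replicates 2 and 3 of Tbx3_del (edgeR adjusted p = 0.0520 to 0.0990). With embryo sex as a covariate the log2 fold change was 1.85 and the call was lost (edgeR adjusted p = 0.0605). The list medians were 0.05 for Tbx3_del and -0.03 for Hand2_del.

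Among caspases and their regulators, 3 of 20 were called in Hand2_del buds and 0 of 20 in buds labelled Tbx3_del, where 2 had an unadjusted p under 0.05. Over all genes tested, 10.5% were called for Hand2_del and 1.01% for Tbx3_del, where 14.3% had an unadjusted p under 0.05 with edgeR. For Hand2_del 7 of the 20 had an unadjusted p under 0.05 with edgeR, beside 32.4% of all genes. Cycs, the gene of cytochrome c, had 132, 155 and 142 CPM in Hand2_del buds, against 184, 172 and 190.2 CPM in Hand2_WT buds and fell (log2 fold change -0.34, edgeR adjusted p = 0.0317). Casp2, an initiator caspase, had 88.4, 89.3 and 85.6 CPM in Hand2_del buds, against 95.1, 99.5 and 99.9 CPM in Hand2_WT buds and fell (log2 fold change -0.16, edgeR adjusted p = 0.0368). Birc2, an inhibitor of apoptosis protein, had 33.6, 34.9 and 34.3 CPM in Hand2_del buds, against 28.4, 29.6 and 27.9 CPM in Hand2_WT buds and rose (log2 fold change 0.26, edgeR adjusted p = 0.0247). The list median was -0.02 for Hand2_del and -0.04 for Tbx3_del.

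Apart from Bcl2, each of these Hand2_del calls was lost without some of the 6 libraries. Those of Sesn1, Psrc1 and Birc2 were lost without any library but Hand2_WT replicate 2 (edgeR adjusted p = 0.0510 to 0.0909, 0.0567 to 0.118 and 0.0556 to 0.0995). Those of Bmf, Chek1, Cycs, Ephx1 and Mcl1 were lost without replicate 1 or 3 of Hand2_WT or of Hand2_del (edgeR adjusted p = 0.12 to 0.153, 0.0784 to 0.118, 0.0738 to 0.116, 0.0748 to 0.112 and 0.0588 to 0.0775), and that of Casp2 without each of the 6 (0.0579 to 0.142). With embryo sex as a covariate, Bcl2 and Birc2 were still called and the others were not, with edgeR adjusted p of 0.0503 (Sesn1) to 0.106 (Bmf).

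**Figure D4:**
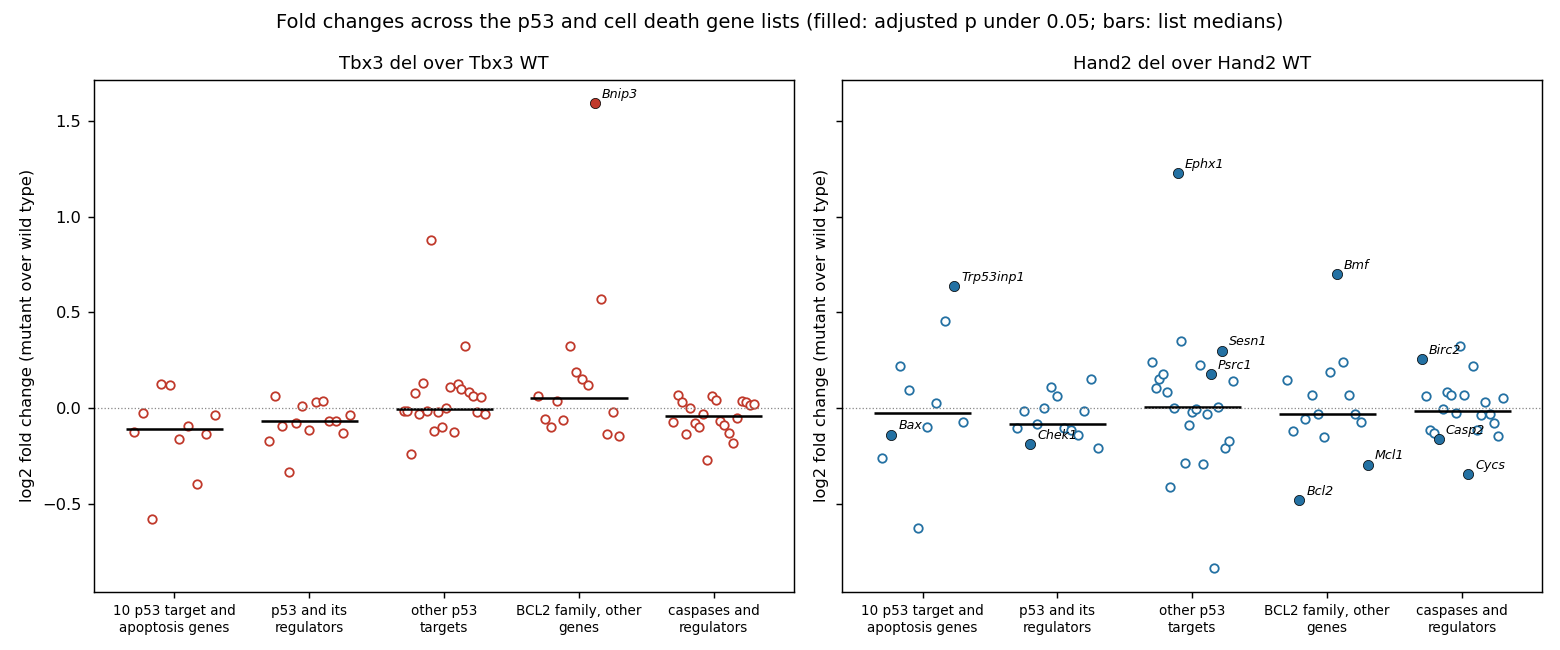
Log2 fold change (mutant over wild type, vertical axis) of every tested gene of the 10 genes and of 4 lists from the p53 and cell death pathways, in the Tbx3 series (left) and the Hand2 series (right), with bars at the list medians and filled points at an adjusted p under 0.05. All medians lie between -0.11 and 0.05, and the filled genes of the Hand2 series lie on both sides of 0.

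Some marker lists of cell types differed in the same comparisons, and others overlapped. Over all genes tested with edgeR, 10.5% were called for Hand2_del and 32.4% had an unadjusted p under 0.05. For Tbx3_del these shares were 1.01% and 14.3%. In Hand2_del buds macrophage markers summed to 5.48 to 9.61 CPM, against 3.03 to 4.63 CPM in Hand2_WT buds, with 1 of 5 called. Endothelial markers summed to 233 to 255 CPM in Hand2_del buds, against 220.4 to 223 CPM in Hand2_WT buds (1 of 5 called), and ectoderm markers to 194 to 209 CPM against 217 to 244 CPM (1 of 6 called, Fgf8, lower). The log2 fold changes of the 6 ectoderm genes ran from -0.75 (Fgf8) to 0.04, with a median of -0.02, beside 0.01 over all genes. Somite and muscle progenitor markers summed to 166 to 177 CPM in Hand2_del buds, against 130 to 155 CPM in Hand2_WT buds, and neuron and neural crest markers to 108 to 121 CPM against 93.9 to 104 CPM, with none called in either list, while 2 and 1 of their 5 genes had an unadjusted p under 0.05 with edgeR. Body wall markers summed to 22.4 to 50.9 CPM in Hand2_del buds, against 5.29 to 29.3 CPM in Hand2_WT buds (1 of 4 called), and red cell markers overlapped with 0 of 6 called and 0 at an unadjusted p under 0.05 with edgeR. Limb mesenchyme markers summed to 1621 to 1978 CPM in Hand2_del buds, against 1467 to 1593 CPM in Hand2_WT buds (2 of 6 called, both higher), and hindlimb markers to 7.43 to 8.83 CPM against 3.84 to 4.86 CPM (2 of 3 called, both higher). In libraries labelled Tbx3_del macrophage markers summed to 4.67 to 5.86 CPM, against 1.73 to 3.80 CPM in Tbx3_WT libraries, and limb mesenchyme markers to 1331 to 1445 CPM against 1506 to 1533 CPM, where Tbx5 fell (1 of 6 called). Hindlimb markers summed to 16.1 to 17.1 CPM in libraries labelled Tbx3_del, against 3.29 to 4.65 CPM in Tbx3_WT libraries (1 of 3 called, Pitx1, higher), and body wall markers to 43.5 to 84.8 CPM against 6.76 to 43.9 CPM. The log2 fold changes of the 3 hindlimb genes ran from -0.05 (Tbx4) to 4.38 (Pitx1). The Tbx3_del and Tbx3_WT sums overlapped for ectoderm (226 to 238 against 216 to 235 CPM), endothelial (214 to 250 against 216 to 236 CPM) and red cell markers. They also overlapped for somite and muscle progenitor markers (176 to 206 against 163 to 180 CPM). Neuron and neural crest markers did not overlap (102 to 119 against 91.5 to 100.2 CPM). EdgeR called no gene for Tbx3_del in the body wall, macrophage, ectoderm, endothelial, red cell, somite and muscle progenitor, and neuron and neural crest lists. In that order, 1, 1, 1, 1, 0, 2 and 2 of their genes had an unadjusted p under 0.05 with edgeR. No marker was at 0 in all libraries of a group, and the part of these cell types in the results above was not tested.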

How the data were processed

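Forelimb bud RNA was sequenced in 12 libraries (4 groups of 3, single-end reads of 85 bp, RNA integrity number of at least 8.0, per the labels' protocols). The submitters' processing notes name FastQC 0.11.4, STAR 2.5.2, RSEM 1.3.0 and build mm10. Neither annotation nor strand setting is given in the sources used here. The deposited values are RSEM expected counts per Ensembl gene, not normalised by the authors. They were rounded here to whole numbers. Of 53465 gene identifiers 53274 had a symbol in GENCODE M21 (GRCm38), from which gene positions and exon lengths were taken, and 191 had none.

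Mutants were tested against the wild types of their own series, 6 libraries at a time, by edgeR 4.0.16 (R 4.3.3; scaling by TMM, filterByExpr with a minimum count of 10 and minimum total of 15, quasi-likelihood F test, Benjamini-Hochberg adjustment over all genes tested, called at an adjusted p under 0.05). Log2 fold changes (mutant over wild type) have a prior count of 0.125, and SE is the size of the fold change over the square root of F. CPM are TMM-scaled. CPM per kb divides by the union of annotated exons, with all 12 libraries scaled together. The difference of effects used all 12 libraries in 4 groups. The scripts were tested on simulated counts. DESeq2 1.42.0 and limma 3.58.1 (voom) were alternatives, as were RLE size factors, no low-count filter, leaving out each library, a replicate block, an embryo sex covariate, and leaving out genes over 2% of counts. Profiles used log2(CPM + 0.5) of genes with a mean of at least 5 CPM in each series.

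The 10 genes, the other lists, the motif search and the tests were chosen with earlier results of these data known. Named are the 10 genes, Trp53, Mdm4, each gene of the 4 pathway lists called in either comparison, and the 5 genes of nearest profile; genes of cell type marker lists are given by counts and sums, and those named from them were singled out after their values were seen. Replicates are separate embryos by their bud pairs, but litters and days are not given, and without molecular identifiers reads may be copies of 1 molecule, so counting error is a lower bound. Same-numbered libraries were checked for shared deviations and showed no clear pairing, but this check cannot exclude shared litters or days.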

Additional observations from a re-analysis of the deposited data

Results flagged for a closer look

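Of the named genes, 4 were singled out because all 3 libraries of one mutant lay on one side of their wild-type mean and all 3 of the other mutant on the opposite side. This rule used the same values as the test of the difference, so that test is no independent support for the 4. The share of all genes that meet the rule was not counted. Birc2 was among the named genes only because it was called for Hand2_del. The difference of effects (Hand2 effect minus Tbx3 effect, log2, 12-library fit, edgeR) passed the test for none of them. DESeq2, which called 859 genes over all, called it for Bbc3 (adjusted p = 0.00648) and Birc2 (adjusted p = 0.00997), and not for Cdkn1a or Pmaip1. It was -0.75 for Cdkn1a (adjusted p = 0.192), with effects of -0.63 for Hand2_del and 0.12 for Tbx3_del, and -0.45 without Hand2_WT replicate 2. It was 0.80 for Bbc3 (adjusted p = 0.0749), with effects of 0.22 and -0.58, and 0.85 for Pmaip1 (adjusted p = 0.356), with effects of 0.46 and -0.39, in the same order. It was 0.33 for Birc2 (adjusted p = 0.0678), with effects of 0.26 for Hand2_del and -0.07 for Tbx3_del. Stage, colony, allele and depth differ between both series and cannot be told apart.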

How the results depend on the processing

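For Tbx3_del, 153 genes were called, against 551 with DESeq2, 99 with limma-voom, 504 with no low-count filter, 422 with all 12 libraries in 1 fit, 87 with the replicate block, 22 with the sex covariate and 23 to 220 without one library. Of the 10 genes, 1 was called with DESeq2 and 1 with all 12 libraries, against 0. For Hand2_del, 1836 genes were called, against 3475 with DESeq2, 161 with the replicate block, 526 with the sex covariate and 218 to 2223 without one library. Of the 10 genes, 2 were called, against 4 with DESeq2 (Cdkn1a and Aen added), 1 each with limma-voom, no low-count filter, all 12 libraries and without genes over 2% of counts (Bax lost, adjusted p = 0.0630, 0.0994, 0.0562 and 0.0535), 0 with the replicate block, 0 with the sex covariate and 0 to 2 without one library. For the difference of effects, 292 genes were called, against 859 with DESeq2, 69 with the replicate block and 123 to 336 without one library, and 2 of the 10 genes with DESeq2 (Bbc3 and Trp53inp1), which also called Birc2. The cause of each move was not tested. Same-numbered libraries showed no clear pairing (r of their deviations 0.0726, 0.0169 and -0.0177 in the Tbx3 series and -0.173, 0.0464 and 0.0937 in the Hand2 series). For the other pairs r was -0.118 to 0.103 and -0.249 to 0.216. Deviations were taken from the means of groups of 3, so these r depend on each other and cannot exclude shared litters or days. With the block or the sex covariate the calls of Bax and Trp53inp1 were lost (adjusted p = 0.168 and 0.134, and 0.0988 and 0.0956). The block also ended the Hand2_del calls of Bcl2 (adjusted p = 0.0705), Mcl1, Bmf, Casp2, Cycs, Birc2, Chek1, Sesn1, Ephx1 and Psrc1, and the sex covariate all of these but Bcl2 and Birc2, and Bnip3 for Tbx3_del (adjusted p = 0.0605). Casp2 was lost with no low-count filter (adjusted p = 0.0654), and Psrc1 with all 12 libraries in 1 fit (adjusted p = 0.0866). Effects near 0 changed sign. For Tbx3_del these were Casp2 with limma-voom (-0.0028), all 12 libraries (-5e-04), the block (-0.0012) and the sex covariate (-0.0658), and, with the sex covariate, Mdm4 (-0.0145), Sesn1 (-0.0102), Bmf (-0.16) and Cycs (0.0143). Without one library the Tbx3_del ranges that crossed 0 were -0.0597 to 0.0059 for Bax, -0.0794 to 0.0325 for Zmat3, -0.0354 to 0.24 for Bmf, -0.0556 to 0.0321 for Casp2 and -0.0624 to 0.0876 for Mdm4. Phlda3 ranged from -0.0271 to 0.0933 for Hand2_del, and the difference of effects from -0.11 to 0.0182 for Ccng1 and from -0.11 to 0.013 for Zmat3. Cdkn1a, Pmaip1 and Bbc3 had the fewest counts of the 10 genes, down to 159, 131 and 223 in a library. Counting error alone was 7.93%, 8.74% and 6.70% of those values. The coefficient of variation within a group reached 33.0% for Cdkn1a and 37.6% for Pmaip1 (Hand2_WT) and 23.3% for Bbc3 (Tbx3_WT). The cause of this spread was not tested.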
